A study of Mus musculus with 72 samples.

Results

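The AP-1 genes Fos, Fosb, Fosl1, Fosl2, Jun, Junb and Jund, with the small MAF gene Maff, were followed across 6 mouse melanoma lines given the neuropeptide GRP, its receptor antagonist RC-3095 (RC), or both. The genes were chosen by symbol, with earlier results of these data known, and all 8 were found among the 50600 genes of the count table. The values are reads counted per gene in 72 libraries, 3 for each of 4 treatments in each line.

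All lines carry Tyr::NRASQ61K/°, an NRAS Q61K transgene driven by the tyrosinase promoter, so NRAS is mutant in control and treated cells alike. Lines 1057 and 1064 are female, have the genotype Cdkn2a-/-, Tyr::CreA/° and Cdh1dF/dF, and express the GRP receptor gene Grpr. Line 1181 is male and is labelled Cdkn2a-/- and Cdh1dF/dF with no Cre (°/°), and line 1014 is female and is labelled with the NRAS transgene alone. Each of these was made to carry CMV::Grpr/tGFP (1181-Grpr and 1014-Grpr) or CMV::tGFP (1181-Ctrl and 1014-Ctrl), so in them the receptor is driven by a viral promoter. Cells were starved for 18 h in 0.5% FCS and then treated for 4 h in 0.5% FCS with 0.1% DMSO (mock), 10 nM GRP, 1 µM RC, or GRP and RC. Each line is a single line, so a difference between lines cannot be told apart from a difference between the animals they came from. The labels do not say that replicates were separate cultures, so p-values measure the spread between these libraries.

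AP-1 is a dimer of a FOS and a JUN protein, or of 2 JUN proteins, that binds DNA through basic leucine zippers. FOS proteins cannot pair with each other and need a JUN partner. Fos and Fosb are classic immediate-early genes, Fosl1 (FRA1) and Fosl2 (FRA2) usually follow later and last longer, and Jund is commonly present in resting cells. FOS, FOSB and the JUN proteins carry transactivation domains, whereas FRA1 and FRA2 are weaker activators. MAFF is a small MAF protein with a zipper but no transactivation domain, and it pairs with itself or with CNC factors such as NRF2. In melanoma, FRA1 and JUN are known for invasive and dedifferentiated cell states.

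Library totals ran from 19512882 to 46862053 counted reads. Over all treatments, Grpr had a median of 187 CPM (counts scaled by the raw library total) in 1057, 684 in 1064, 190 in 1014-Grpr and 19.4 in 1181-Grpr. It was at most 0.101 CPM in the libraries used of 1181-Ctrl and 1014-Ctrl. Grpr also differed between mock and GRP libraries, in different directions by line. It went from 131, 112 and 148 CPM in mock to 394, 555 and 596 CPM with GRP in 1014-Grpr. In 1181-Grpr it went from 19.4, 9.6 and 8.97 CPM to 87.6, 20.3 and 41.8 CPM. It was lower with GRP in 1064 (902, 1171 and 694 CPM to 393, 420 and 438 CPM) and in 1057 (246, 254 and 253 CPM to 183, 174 and 186 CPM). In 2 libraries both Grpr and the Y-linked gene Ddx3y went against the label. The library labelled 1014-Ctrl mock replicate 2 held 50.6 CPM of Grpr and 67.7 CPM of Ddx3y, and the library labelled 1181-Grpr GRP+RC replicate 2 held no read of either. Both were left out, and 70 libraries were used unless stated. Maff was also unlike the line in both, at 128 CPM in the library labelled 1014-Ctrl against 14.5 to 17.8 CPM in the other libraries of that line, and at 18.8 CPM in the library labelled 1181-Grpr against 74.1 to 159 CPM. With both libraries kept under their labels, the number of these 8 genes called was the same in every line and comparison with a 2-group contrast. All 7 melanocyte markers were present, and their summed level ran from 7163 to 56650 TPM over the libraries. In 1064 this sum was 37008 to 38812 TPM in the replicate 1 libraries and 15020 to 20202 TPM in those of replicates 2 and 3, in each treatment, so replicate 1 of 1064 stood apart. Of markers of other cells, Ptprc, Adgre1 and Cd3e (leukocytes) reached at most 0.05 TPM, while Cd68 and Lyz2 of that list, which are lysosomal and secreted proteins, were at 2.98 to 100 TPM and 1.37 to 154 TPM.

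The genes lie on different chromosomes apart from Junb and Jund, both on chromosome 8. In GENCODE annotation of GRCm38, Fos (ENSMUSG00000021250) spans chr12:85473890-85477273, Fosb (ENSMUSG00000003545) chr7:19302696-19310051, Fosl1 (ENSMUSG00000024912) chr19:5447547-5455946 and Fosl2 (ENSMUSG00000029135) chr5:32135801-32157842. Jun (ENSMUSG00000052684) spans chr4:95049034-95052222, Junb (ENSMUSG00000052837) chr8:84974484-84978718, Jund (ENSMUSG00000071076) chr8:70698949-70700616 and Maff (ENSMUSG00000042622) chr15:79346621-79359076. Jun and Jund each have 1 exon block. Of the exon bases of Fosl1, 57.2% are shared with Ccdc85b on the other strand, and of those of Jund 52.6% are shared with Gm11175, against 7.3% for Jun (Junos), 7.5% for Junb (Prdx2) and none for the other 4. The libraries were strand-specific, but whether the counting used the strand is not given in the sources used here, so counts of Fosl1 and Jund are less certain.

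The promoters of several of these genes hold the letters TGACG, the core of the cAMP response element TGACGTCA, which CREB and ATF factors bind. Stretches from 120 to 11 bases before the annotated start are shown for a pair of FOS genes that rose with GRP (Fos, Fosb), for Junb and Maff, which rose in 1 line, and for Jun, which was not called in any. They are RefSeq sequences of GRCm38.p6, written 5′ to 3′ on the strand of the gene, with capitals marking TGACG or TGANNTCA. The Maff stretch belongs to the second of 3 annotated starts and lies within an intron of another Maff transcript.
Fos, chr12:85473770-85473879, plus strand: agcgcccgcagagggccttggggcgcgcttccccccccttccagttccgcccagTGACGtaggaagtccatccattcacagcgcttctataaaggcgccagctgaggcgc
Fosb, chr7:19310056-19310165, minus strand: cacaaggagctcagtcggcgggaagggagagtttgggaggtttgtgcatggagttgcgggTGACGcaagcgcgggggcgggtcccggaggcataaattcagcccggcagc
Junb, chr8:84978759-84978868, minus strand: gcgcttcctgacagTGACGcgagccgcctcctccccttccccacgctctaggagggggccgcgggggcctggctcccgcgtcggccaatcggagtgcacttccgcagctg
Maff, chr15:79347400-79347509, plus strand: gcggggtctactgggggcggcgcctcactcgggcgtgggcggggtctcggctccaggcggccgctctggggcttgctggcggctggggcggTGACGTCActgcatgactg
Jun, chr4:95052233-95052342, minus strand: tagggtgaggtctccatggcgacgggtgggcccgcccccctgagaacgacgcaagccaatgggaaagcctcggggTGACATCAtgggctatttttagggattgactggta

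The windows searched ran from 250 bases before to 50 bases after the start, on both strands, in 32851 RefSeq windows of the same length, among which 7 of the 8 genes were matched (not Fosl1). TGACG was found in the windows of Fos, Fosb and Junb and in 2 of the 3 windows of Maff, and 20.8% of all windows hold it. The window of Fosl2, which rose with GRP in the same lines as Fos, did not hold it, nor did those of Jun and Jund. The full TGACGTCA was found only in the Maff stretch shown above, 29 bases before the start, and 1.79% of all windows hold it. The palindrome-like TGANNTCA, which includes TGACGTCA, was found in Jun, Jund and 2 windows of Maff, against 14.1% of all windows. In Jun its letters were TGACATCA, 45 bases before the start. The AP-1 motif TGANTCA (7.81% of all windows) and the CArG box bound by SRF (1.63%) were found in none of the windows of Fos, Fosb, Fosl2, Jun, Junb, Jund or Maff. Sites farther than 250 bases before the start were not searched, so a motif absent here may lie beyond the window. The starts are those of RefSeq, and some differ from the gene positions given above. The Jund window ended at chr8:70697788, before the gene start printed above, and the Fosl2 window at chr5:32136521, inside the printed gene. These matches describe letters, and binding was not measured.

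In resting, mock-treated cells the JUN genes and Maff made up most of the transcripts of the group, and Fosb and Fosl1 were the rarest. Levels of different genes are compared on the authors' TPM, which are per length. Jund was the most abundant of the 8 in every line but 1057, at 258 ± 24.6 TPM (SD, n = 3) in 1064 and 405 ± 49.4 TPM (SD, n = 3) in 1014-Grpr. In 1057 it was 80.1 ± 16.6 TPM (SD, n = 3), and Maff stood at 92.7 ± 5.48 TPM (SD, n = 3), but the libraries of those overlapped. Jun, the partner of most AP-1 dimers, came next after Jund in the other 5 lines, and its libraries did not overlap those of Jund in any line. Jun ran from 55.5 TPM in 1057 to 269 TPM in 1181-Ctrl. Maff was at 28.4 TPM in 1014-Ctrl and 31.0 TPM in 1014-Grpr and at 148 TPM in 1181-Ctrl and 184 TPM in 1181-Grpr.

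Among the FOS genes at rest, Fos and Fosl2 held the first or second place in every line. Fosl2 was at 16.5 ± 0.423 TPM (SD, n = 3) and Fos at 9.04 ± 0.210 TPM (SD, n = 3) in 1057, where their libraries did not overlap. In 1014-Grpr the order was turned, with Fos at 48.3 ± 14.5 TPM (SD, n = 3) and Fosl2 at 14.2 ± 1.41 TPM (SD, n = 3). In 1064 the Fos and Fosl2 libraries overlapped. Fosb lay between 0.557 TPM in 1057 and 1.96 TPM in 1014-Ctrl, and Fosl1 between 0.463 TPM in 1181-Ctrl and 5.05 TPM in 1014-Ctrl. Fosb and Fosl1 overlapped in 1057, 1064 and 1181-Grpr, so they did not differ there beyond the spread of the libraries. All 4 FOS genes together were 8.31% of the summed FOS and JUN transcripts in 1064, 14.5% in 1057 and 5.57% in 1181-Grpr.

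**Figure D1:**
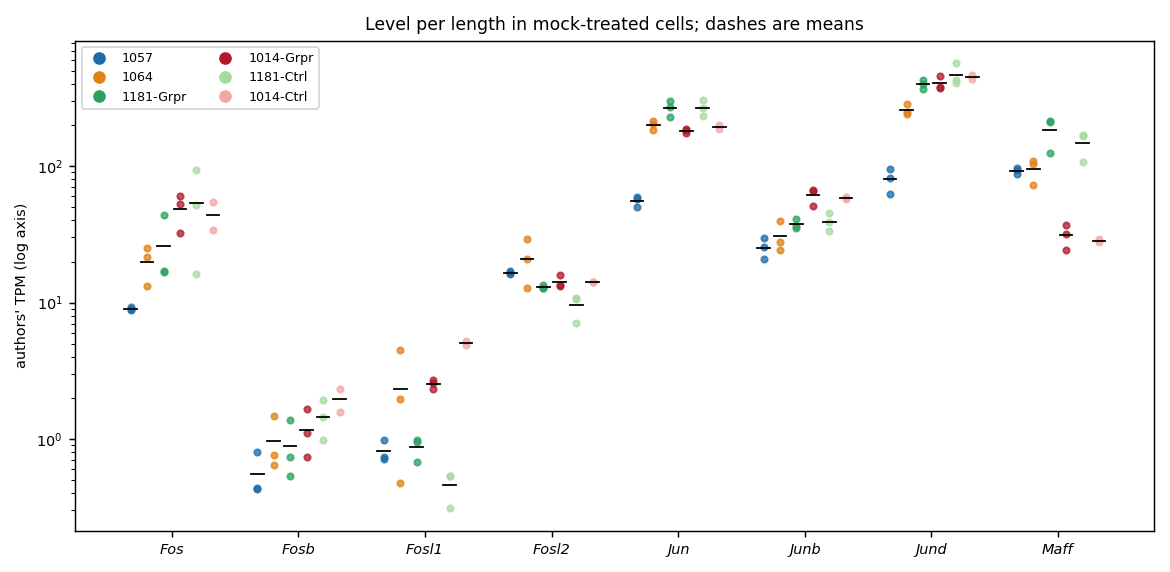
Level of each gene in mock-treated libraries, in the authors' TPM on a log axis, with 1 point per library coloured by line and a dash at the mean (2 libraries in 1014-Ctrl, 3 elsewhere). Jund and Jun lie at the top in most lines, at 80.1 and 55.5 TPM on average in 1057 and at 405 and 182 TPM in 1014-Grpr, and Fosb (0.557 to 1.96 TPM) and Fosl1 (0.463 to 5.05 TPM) at the bottom.

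Carrying Grpr did not shift any of the 8 genes past the thresholds in resting cells. A gene was called when the quasi-likelihood test of edgeR gave an adjusted p under 0.05 and its absolute log2 fold change above 1. Of 8 genes tested, 0 were called between mock-treated 1181-Grpr and 1181-Ctrl, where 6.58% of 15286 genes were called higher in 1181-Grpr and 1.49% lower. Between 1014-Grpr and 1014-Ctrl 0 were called either, with 0.389% and 0.486% of 14404 genes called higher and lower. The nearest was Fosl1, with a log2 difference of -0.98 (SE 0.279, adjusted p = 0.0793) in 1014-Grpr against 1014-Ctrl. The other log2 differences lay between -1.03 (Fos in 1181, SE 0.806, adjusted p = 0.436) and 0.91 (Fosl1 in 1181, SE 0.452, adjusted p = 0.188).

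GRP for 4 h raised all 4 FOS genes in 1057, 1064 and 1014-Grpr, each by 3.67-fold or more, whereas the JUN genes were called in 1 line each or in none. In 1057, 5 of the 8 genes rose (Fos, Fosb, Fosl1, Fosl2, Jund), where 4.96% of all 14195 genes tested did. In 1064, 4 of 8 rose (the 4 FOS genes), where 1.52% of 13794 did. In 1014-Grpr, 6 of 8 rose (the 4 FOS genes, Junb and Maff), where 3.16% of 13730 did. None of the 8 fell in these lines, where 1.5%, 0.797% and 0.852% of all genes did. The median log2 fold change over the 8 genes was 1.78 in 1057, 1.51 in 1064 and 1.90 in 1014-Grpr, against -0.01, -0.02 and -0.02 over all genes tested. Differences between one paralog and another were not tested, and their values are set side by side. In these bulk libraries more cells with a transcript and more of it per cell cannot be told apart.

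Fos, whose protein is the classic partner of JUN, stood at 6.31, 6.44 and 6.25 CPM (TMM-normalized within the line, as are all CPM from here on) in the mock libraries of 1057. With GRP it was 38.1, 37.2 and 37.4 CPM, a log2 fold change of 2.57 (SE 0.06, adjusted p = 2.24e-16). These replicates lay close together and the groups were far apart. In 1064 Fos was 16.2, 8.92 and 15.3 CPM in mock and 81.1, 32.6 and 34.9 CPM with GRP (log2 fold change 1.88, SE 0.479, adjusted p = 0.0456). Replicate 1 of 1064 was the highest of its group in mock, GRP, RC and GRP+RC. In 1014-Grpr Fos went from 40.1, 34.7 and 20.5 CPM to 112, 131 and 136 CPM (log2 fold change 1.99, SE 0.223, adjusted p = 5.00e-05).

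Fosb, which is also spliced into the long-lived truncated protein known from neurons, was scarce at rest and rose to a similar degree in the 3 lines. It went from 0.819, 1.47 and 0.799 CPM to 6.87, 5.96 and 7 CPM in 1057, a log2 fold change of 2.68 (SE 0.159, adjusted p = 8.90e-11). In 1064 it went from 1.33, 1.18 and 2.79 CPM to 13.3, 18.1 and 13.6 CPM (3.07, SE 0.362, adjusted p = 0.00413). Replicate 1 was not the highest there, unlike for Fos. In 1014-Grpr the values were 1.97, 1.29 and 2.82 CPM in mock and 12.7, 21.2 and 17.2 CPM with GRP (3.10, SE 0.309, adjusted p = 2.08e-05).

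Fosl1, which encodes FRA1, had log2 fold changes from 2.66 to 4.48 in these lines. In 1014-Grpr it went from 1.24, 1.29 and 1.07 CPM to 22.8, 33.7 and 25.1 CPM, a fitted 22.4-fold rise (log2 fold change 4.48, SE 0.224, adjusted p = 2.77e-07). These are 24 to 42 counted reads per mock library and 560 to 1098 per GRP library. In 1057 it went from 0.382, 0.499 and 0.358 CPM to 3.26, 3.73 and 3.76 CPM (3.11, SE 0.168, adjusted p = 2.31e-11), with 13 to 18 reads per mock library. The mock libraries of 1064 were spread over 0.924, 0.236 and 2.34 CPM, and the GRP libraries were at 10.9, 5.37 and 6.53 CPM (2.66, SE 0.667, adjusted p = 0.0432). Ccdc85b, whose exon shares bases with Fosl1 on the other strand, had log2 fold changes of -0.02 (SE 0.258) in 1057, 0.80 (SE 0.16) in 1064 and 0.77 (SE 0.132) in 1014-Grpr, all smaller than those of Fosl1.

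Fosl2, which encodes FRA2, had the largest share of the FOS TPM after GRP in 1057 and in 1064. It went from 50, 47 and 46 CPM to 270.3, 295 and 279 CPM in 1057 (log2 fold change 2.56, SE 0.0413, adjusted p = 2.19e-18). In 1064 it was 77.4, 35.9 and 61.7 CPM in mock and 426, 189 and 211 CPM with GRP (2.24, SE 0.475, adjusted p = 0.0232), again with replicate 1 on top in both groups. In 1014-Grpr it went from 43.4, 36.9 and 34.8 CPM to 132, 221 and 159 CPM (2.15, SE 0.155, adjusted p = 2.27e-06). No mock and GRP libraries overlapped for any FOS gene in these 3 lines, where 27.6%, 11.2% and 21.6% of all genes tested were higher without overlap in 1057, 1064 and 1014-Grpr.

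**Figure D2:**
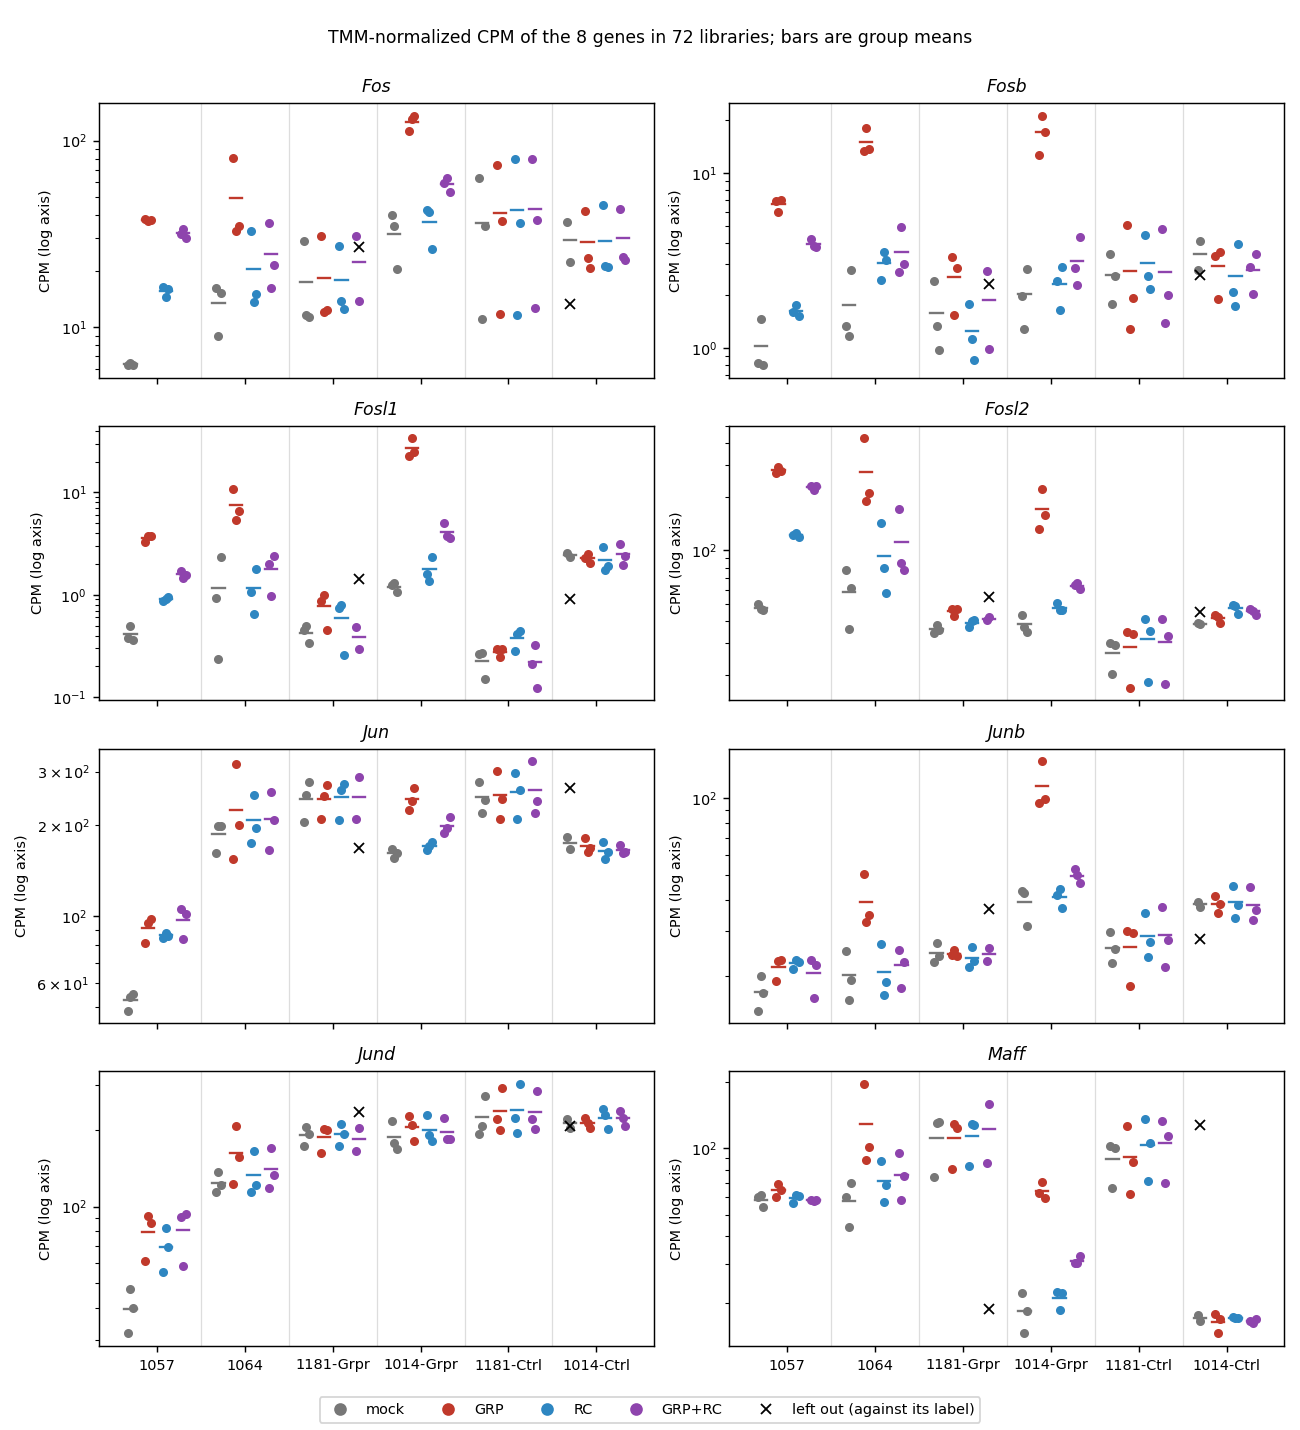
TMM-normalized CPM of each gene on a log axis, with 1 point per library by line and treatment, a bar at each group mean, and crosses for the 2 libraries left out. The FOS genes separate mock (grey) from GRP (red) in 1057, 1064 and 1014-Grpr, and the cross of Maff in 1014-Ctrl lies at 128 CPM against 14.5 to 17.8 CPM for its line.

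The JUN genes moved less with GRP, and each in a different set of lines. Jun, which is itself a target of the JNK pathway, was 48.7, 54.0 and 55.4 CPM in mock and 81.5, 94.9 and 98 CPM with GRP in 1057, a log2 fold change of 0.80 (SE 0.0755, adjusted p = 5.68e-08). In 1014-Grpr it went from 166, 156 and 162 CPM to 225, 241 and 265 CPM (0.59, SE 0.07, adjusted p = 7.40e-05). Both differences passed the p threshold but not the fold threshold. In 1064 the groups overlapped, with 162, 198 and 198 CPM in mock and 154, 317 and 199 CPM with GRP (0.27, SE 0.256, adjusted p = 0.618).

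Junb, which often competes with JUN for FOS partners, rose in 1014-Grpr from 43.3, 42.5 and 31.6 CPM to 96.0, 139.8 and 98.8 CPM (log2 fold change 1.51, SE 0.151, adjusted p = 2.21e-05). In 1064 it was 25.2, 16.1 and 19.3 CPM in mock and 50.3, 32.6 and 34.7 CPM with GRP (0.96, SE 0.24, adjusted p = 0.0438), just under the fold threshold. Its groups overlapped in 1057, at 14.7, 20.1 and 17.1 CPM against 19.2, 23.0 and 23.2 CPM (0.34, SE 0.114, adjusted p = 0.0193). Jund showed another order of lines. It rose in 1057, from 31.8, 47.3 and 40.0 CPM to 61.2, 91.7 and 86.1 CPM, at a log2 fold change of 1.01 (SE 0.182, adjusted p = 1.30e-04) that lay just past the fold threshold. The value was under that threshold without replicate 3 (0.96), in 1 fit of all lines (0.98) and with limma on TPM (0.92). In 1014-Grpr Jund differed by 0.13 (SE 0.126, adjusted p = 0.472) and in 1064 by 0.39 (SE 0.21, adjusted p = 0.324). Gm11175, which overlaps Jund, had a log2 fold change of -0.38 (SE 0.482) in 1057.

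Maff rose in 1014-Grpr from 22.1, 14.5 and 18.3 CPM to 62.8, 70.7 and 59.7 CPM, a log2 fold change of 1.81 (SE 0.132, adjusted p = 2.27e-06). In 1057 its groups overlapped, at 60.2, 61.3 and 54.1 CPM in mock and 60.2, 69.1 and 65.1 CPM with GRP (0.15, SE 0.0521, adjusted p = 0.0233). In 1064 it was 60.1, 44.2 and 69.8 CPM in mock and 196, 89.0 and 101 CPM with GRP (1.15, SE 0.314, adjusted p = 0.0569). With the replicate number as a block, since same-numbered libraries of 1064 deviated together, Maff was called in 1064 as well (1.08, adjusted p = 4.68e-04), and 5 of 8 genes rose where 3.48% of all did. The calls in 1064 rested on all 3 replicates. Without the replicate 1 libraries 0 of the 8 genes were called there, without those of replicate 2 also 0, and without those of replicate 3 only Fosb.

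**Figure D3:**
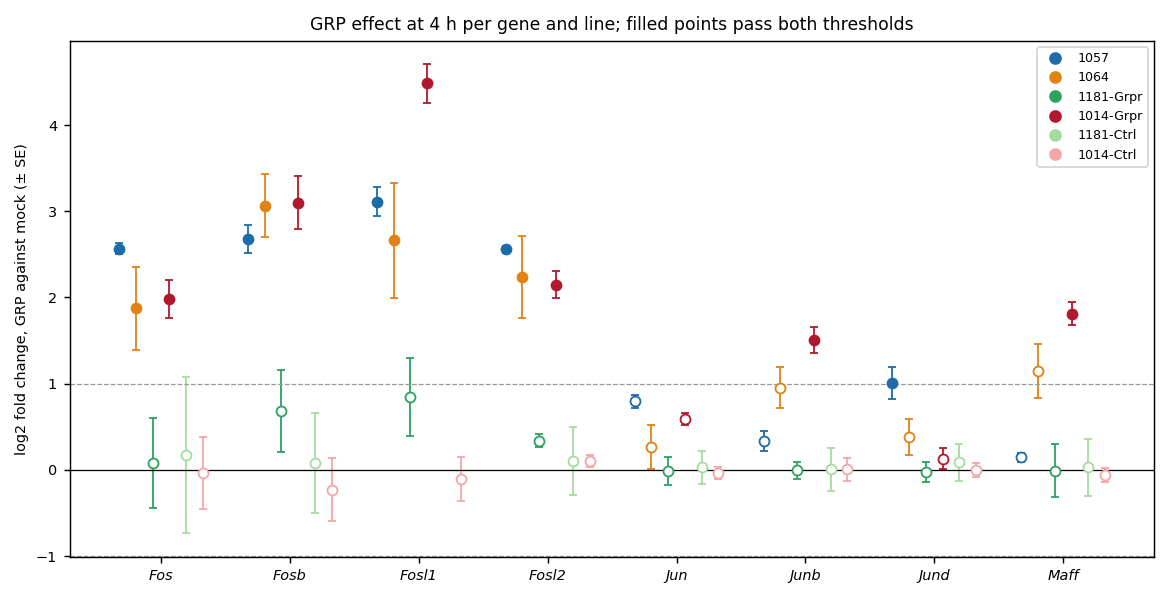
Log2 fold change of GRP against mock for each gene, with its SE, coloured by line, where filled points passed both thresholds and the dashed lines mark the fold threshold. The FOS genes of 1057, 1064 and 1014-Grpr lie between 1.88 and 4.48, the JUN genes and Maff between 0.13 and 1.81, and the points of 1181-Grpr and the control-vector lines at or under 0.85. Fosl1 in 1181-Ctrl was not tested because of low counts.

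In 1181-Grpr none of the 8 genes was called with GRP, by edgeR or DESeq2, and 1 (Fosl2) had an unadjusted p under 0.05. Without the replicate block no gene of the 14770 tested was called there by either tool, and 110 had an unadjusted p under 0.05. Fos was 29.1, 11.6 and 11.3 CPM in mock and 30.6, 12.1 and 12.3 CPM with GRP. Fosb had a log2 fold change of 0.68 (SE 0.474) and Fosl1 one of 0.85 (SE 0.447), and their groups overlapped. Fosl2 was the only member without overlap, at 34.5, 37.8 and 35.6 CPM against 46.7, 42.9 and 47.1 CPM (log2 fold change 0.34, SE 0.0709, adjusted p = 1), where 1.41% of all genes were higher without overlap. With the replicate block the log2 fold change of Fosl2 was 0.35 (adjusted p = 6.72e-04), still under the fold threshold. In that fit 0 members were called, and 16 of the 14770 genes were. The JUN genes and Maff lay between -0.02 and -0.01.

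In the lines without receptor none of the 7 or 8 genes tested was called either, by edgeR or DESeq2, none had an unadjusted p under 0.05, and 0% of all genes were called higher. In 1181-Ctrl, Fos was 63.2, 11.1 and 34.9 CPM in mock and 73.9, 11.8 and 37.3 CPM with GRP. The replicates kept the same order in both groups, and the spread between them was wider than the difference between groups. In 1014-Ctrl Fos was 36.5 and 22.3 CPM in mock and 42.1, 23.4 and 20.7 CPM with GRP. Fosl2 was 38.9 and 38.5 CPM in mock and 43.3, 42.5 and 39.2 CPM with GRP there. With only 2 mock libraries used, groups separate more easily, and Fosl2 had no unadjusted p under 0.05.

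The response differed between the receptor line and its control in 1014. The GRP effect in 1014-Grpr minus that in 1014-Ctrl was called for 6 of 8 genes, where 2.33% of 14404 genes were called higher. It was 4.6 for Fosl1 (SE 0.349, adjusted p = 4.10e-08), 3.34 for Fosb (SE 0.499, adjusted p = 9.92e-05), 2.05 for Fosl2 (SE 0.186, adjusted p = 3.00e-07) and 2.03 for Fos (SE 0.485, adjusted p = 0.00638) on the log2 scale. Maff differed by 1.88 (SE 0.168, adjusted p = 2.67e-07) and Junb by 1.51 (SE 0.216, adjusted p = 6.11e-05). Jun differed by 0.63 (SE 0.1, adjusted p = 1.80e-04), under the fold threshold, and Jund by 0.14 (SE 0.164, adjusted p = 0.631). For 1181 the same difference was called for 0 of 8 genes and for 0% of 15286 genes, by edgeR and DESeq2, and it lay between -0.12 for Jund (SE 0.26) and 0.59 for Fosb (SE 0.795). 

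Over the 4 receptor-expressing lines together, the mean GRP effect was called for the 4 FOS genes, where 2.06% of 16615 genes were called higher. It was 2.76 for Fosl1 (SE 0.218), 2.37 for Fosb (SE 0.184), 1.82 for Fosl2 (SE 0.137) and 1.62 for Fos (SE 0.202). Maff (0.77, SE 0.125), Junb (0.70, SE 0.0879), Jun (0.41, SE 0.0875) and Jund (0.37, SE 0.0958) passed the p threshold with smaller means. The size of the effect differed between the 4 lines for 7 of 8 genes, in a test that 10.1% of all genes passed. Junb had the smallest adjusted p, 1.66e-04, and Jun the only one above the threshold, 0.104. With the replicate block Jun passed too (adjusted p = 4.09e-06), in a fit where 48.7% of all genes did. Leaving out the replicate 1, 2 or 3 libraries left 4, 2 or 3 members past the threshold. Grpr itself was lowest in 1181-Grpr, the line in which no member was called, and the part of receptor level in these differences was not tested.

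RC given with GRP lowered all 4 FOS genes in 1014-Grpr and Fosl1 in 1057, against GRP alone. In 1014-Grpr, GRP+RC against GRP was called lower for 6 of 8 genes (the 4 FOS genes, Junb and Maff), where 1.59% of all genes were. In 1057 it was called for 1 (Fosl1), where 0.754% were, and in 1064 for 0 of 8, where 0.0145% were. In 1064 5 of the 8 had an unadjusted p under 0.05, where 9.98% of all genes did, and DESeq2 called 1 (Fosb), where it called 0.464% of all. With the replicate block 3 (Fosb, Fosl1 and Fosl2) were called lower in 1064, where 1.28% of all genes were. No member was called in 1181-Grpr or the control-vector lines, by edgeR or DESeq2, where no member had an unadjusted p under 0.05.

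In 1014-Grpr Fosl1 was at 5.06, 3.72 and 3.61 CPM with GRP+RC, down from 22.8, 33.7 and 25.1 CPM with GRP alone, a log2 fold change of -2.72 (SE 0.196, adjusted p = 2.13e-05). Fosb was at 2.88, 2.30 and 4.28 CPM, which overlapped its mock libraries, and its log2 fold change against GRP was -2.43 (SE 0.297, adjusted p = 3.24e-04). Those 2 had the most negative log2 fold changes of the 8 genes. Fosl2 fell by 1.43 (SE 0.152, adjusted p = 1.18e-04) to 63.4, 65.3 and 60.5 CPM, and Junb by 1.17 (SE 0.15, adjusted p = 4.22e-04) to 52.5, 50.1 and 46.5 CPM. Fos fell by 1.11 (SE 0.216, adjusted p = 0.00568) to 59.3, 62.8 and 53.2 CPM, and Maff by 1.06 (SE 0.128, adjusted p = 3.16e-04) to 30.3, 30.2 and 32.4 CPM. The call of Fos was lost without the libraries of replicate 1 (adjusted p = 0.061), replicate 2 (adjusted p = 0.0934) or replicate 3 (log2 fold change -0.98), and in 1 fit of all lines (adjusted p = 0.347). Those of Junb and Maff were lost without replicate 2, at -0.98 and -0.97. Against mock, only Fosl1 remained called in 1014-Grpr with GRP+RC (1.76, SE 0.237, adjusted p = 0.0102), where 0.153% of all genes were called higher. It was not called when any 1 of the 3 replicates was left out. The other genes were not all back at mock levels. In this comparison 6 of the 8 had an unadjusted p under 0.05 by edgeR, as had 1618 of 13730 genes tested. The median log2 fold change of the 8 was 0.69, against -0.01 over all genes tested.

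In 1057 the FOS genes stayed high in the presence of RC. Fos was 31.6, 33.6 and 30.1 CPM with GRP+RC and Fosl2 229, 218 and 230.1 CPM, and both lay below every GRP library (log2 fold changes -0.24, SE 0.0487, and -0.32, SE 0.0374), as 20% of all genes tested did. Fosb was 4.21, 3.82 and 3.77 CPM (-0.74, SE 0.127, adjusted p = 2.39e-04), and Fosl1 was 1.72, 1.47 and 1.56 CPM (-1.18, SE 0.131, adjusted p = 2.45e-06). Against mock, 5 of 8 genes were still called higher in 1057 with GRP+RC (Fos, Fosb, Fosl1, Fosl2, Jund), where 3.02% of all genes were. That call of Jund was lost without replicate 1 (0.79) or replicate 3 (0.94) and with limma on TPM (0.95), and that of Fosb with limma on TPM (0.97). Jun and Jund showed no reversal there, with log2 fold changes of 0.08 (SE 0.0728, adjusted p = 0.484) and 0.02 (SE 0.173, adjusted p = 0.954) for GRP+RC against GRP.

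In 1064 Fosb was at 2.70, 4.92 and 3.03 CPM with GRP+RC, a log2 fold change of -2.07 against GRP (SE 0.345, adjusted p = 0.0818, with the block 8.28e-04). Fosl1 was at 2, 0.978 and 2.40 CPM (-2.08, SE 0.647, adjusted p = 0.299, with the block 0.00348). Fosl2 was at 170.2, 84.3 and 77.6 CPM (-1.31, SE 0.461, adjusted p = 0.356, with the block 0.00201). For these 3 genes and Junb (25.3, 18.0 and 22.8 CPM, log2 fold change -0.83, SE 0.239, adjusted p = 0.272) each GRP+RC library was lower than every GRP library, as was so for 7.25% of all genes tested. Fos was at 36.4, 16.3 and 21.5 CPM, and there the libraries overlapped (-1.0, SE 0.466, adjusted p = 0.521). Against mock, 0 of 8 genes were called in 1064 with GRP+RC, by edgeR or DESeq2, and 1 had an unadjusted p under 0.05, where 2.55% of all genes did.

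The share of the GRP rise left in the presence of RC was taken as the GRP+RC mean minus the mock mean, over the GRP mean minus the mock mean, in CPM. These means share the mock and GRP libraries, so the shares are descriptions. The SD printed is that of the GRP+RC libraries on this scale, with the mock and GRP means held fixed. In 1014-Grpr 7.49% ± 6.79 (SD, n = 3) of the rise of Fosb was left, 11.3% ± 3.09 of that of Fosl1, 14.6% ± 4.22 for Junb, 18.7% ± 1.82 for Fosl2, 27.4% ± 2.72 for Maff and 28.2% ± 5.1 for Fos. In 1057 36.8% ± 3.89 was left for Fosl1, 52.1% ± 4.33 for Fosb, 76.1% ± 2.93 for Fosl2, 81.5% ± 5.69 for Fos and 103% ± 48.5 for Jund. The shares do not take out the level reached with RC alone. In 1057 that level was 10.7% of the GRP rise for Fosb, 15.7% for Fosl1, 29.7% for Fos, 31.8% for Fosl2 and 73.7% for Jund. In 1014-Grpr it ran from 1.98% (Fosb) to 7.03% (Fosl2). In 1064 the shares were 9.73% ± 11.4 for Fosl1, 13.5% ± 9.06 for Fosb, 24.1% ± 23.8 for Fosl2 and 31.2% ± 28.9 for Fos, and their order lay within the spread. Fosb and Fosl1 had the smallest shares of the FOS genes in 1057 and 1014-Grpr, and the differences between genes were not tested. On the log2 scale the shares were higher for every gene but Jund, and in 1014-Grpr Fosl1 then kept 39.3%, more than Fosb (21.6%) and Fosl2 (33.3%).

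**Figure D4:**
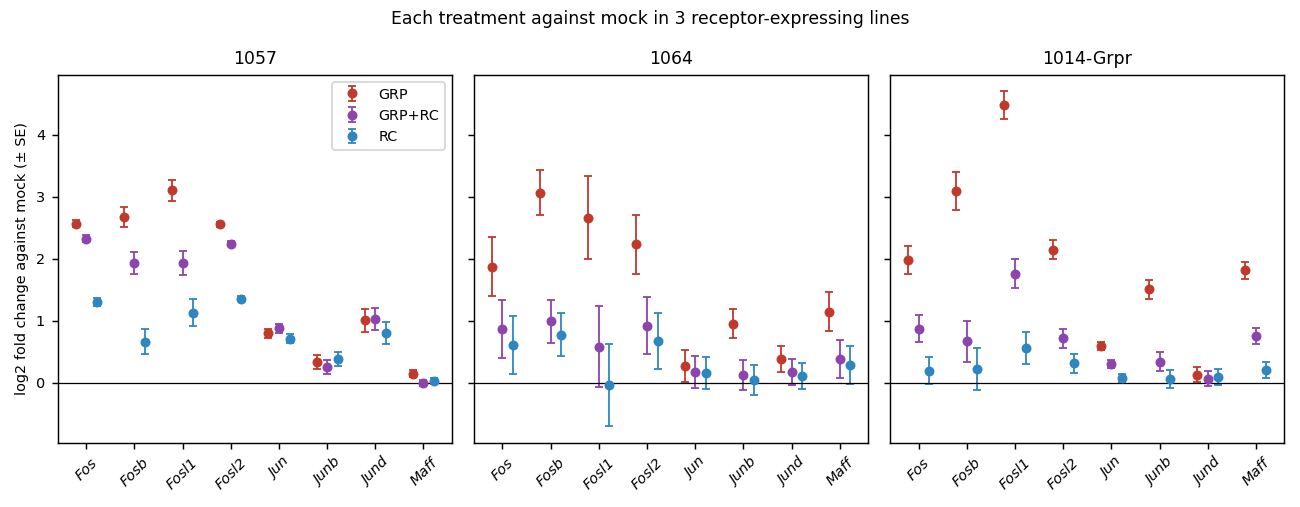
Log2 fold change against mock, with its SE, for GRP (red), GRP+RC (purple) and RC alone (blue) in 1057, 1064 and 1014-Grpr. In 1057 the purple points stay near the red ones for Fos and Fosl2 (2.33 and 2.24 against 2.57 and 2.56), and RC alone ranges from 0.03 (Maff) to 1.35 (Fosl2), while in 1014-Grpr RC alone ranges from 0.06 (Junb) to 0.56 (Fosl1).

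RC without GRP raised FOS genes in 1057. It was called for 3 of 8 genes there (Fos, Fosl1 and Fosl2), where 0.81% of all genes were called higher, and for none in the other 5 lines by edgeR or DESeq2. Fos was 16.4, 14.4 and 16.1 CPM with RC, above all mock libraries, as 18.8% of all genes tested were, and below all GRP libraries (log2 fold change against mock 1.3, SE 0.0656, adjusted p = 1.64e-10). Fosl2 was 122, 125 and 119 CPM (1.35, SE 0.0413, adjusted p = 1.22e-13), and Fosl1 0.868, 0.903 and 0.959 CPM (1.13, SE 0.216, adjusted p = 8.72e-04). Jund (0.80, SE 0.183), Jun (0.71, SE 0.0756), Fosb (0.66, SE 0.202) and Junb (0.38, SE 0.114) passed the p threshold only. Maff did not pass it (0.03, SE 0.0524, adjusted p = 0.756). In 1 fit of all lines, only Fosl2 was called with RC in 1057. At most 1 member in each of the other lines had an unadjusted p under 0.05. In 1014-Grpr Fosl1 (1.61, 1.37 and 2.33 CPM with RC) and Fosl2 (50.6, 46.3 and 46.0 CPM) lay above all mock libraries, as 2.16% of all genes did, without passing the test (log2 fold changes 0.56, SE 0.259, and 0.31, SE 0.153). In 1014-Ctrl, which lacks the receptor, Fosl2 was at 49.3, 48.5 and 43.7 CPM with RC. It was at 38.9 and 38.5 CPM in the 2 mock libraries used there, and was not called. In that comparison 1 of the 8 genes had an unadjusted p under 0.05 by edgeR, as had 288 of 13918 genes tested. The difference of the RC effect between the 4 receptor-expressing lines passed for 0 of 8 genes, in a test that 0.012% of all genes passed, and with the replicate block for 4 (Fos, Fosl2, Jun and Jund) where 2.17% of all did.

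Since RC alone moved these genes in 1057, the GRP effect in the presence of RC (GRP+RC against RC) was set against that without it (GRP against mock), a comparison added after the data were seen. The effect with RC was smaller, past both thresholds, for the 4 FOS genes in 1057 (2.09% of all genes were called lower) and for 6 genes in 1014-Grpr (1.05%). In 1057 the difference was -1.54 for Fos (SE 0.0819), -1.40 for Fosb (SE 0.238), -2.31 for Fosl1 (SE 0.252) and -1.67 for Fosl2 (SE 0.0557). In 1014-Grpr it was -1.31 for Fos (SE 0.309), -2.66 for Fosb (SE 0.45), -3.28 for Fosl1 (SE 0.324), -1.75 for Fosl2 (SE 0.215), -1.23 for Junb (SE 0.213) and -1.26 for Maff (SE 0.185). Without the replicate 1 or the replicate 2 libraries the calls of Fos, Fosb and Junb in 1014-Grpr were lost, and without those of replicate 3 that of Maff. In 1064 0 were called by edgeR and 1 (Fosb) by DESeq2, which called 0.689% of all genes, and 6 had an unadjusted p under 0.05, where 9.19% of all did. The 4 FOS genes were called there with the block, where 2.07% of all genes were. How far GRP+RC differed from GRP varied between the 4 receptor-expressing lines for 1 of 8 genes (Junb, adjusted p = 0.0223), where 0.56% of all genes passed, and with the block for 6, where 24.6% did.

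The make-up of the FOS transcripts changed with GRP in some lines, as summed TPM show. The 4 FOS genes together held 27.0 ± 0.537 TPM (SD, n = 3) in mock and 154 ± 2.07 TPM (SD, n = 3) with GRP in 1057, and 66.2 ± 15.4 TPM (SD, n = 3) and 300 ± 38.3 TPM (SD, n = 3) in 1014-Grpr. In 1014-Grpr the share of Fosl1 among them went from 3.22% to 4.70% in the mock libraries to 16.0% to 19.4% with GRP, and it was 6.05% to 8.42% with GRP+RC. In 1057 the make-up was nearly constant, with Fosl2 at 59.8% to 63.0% in mock and 59.2% to 61.6% with GRP. Fosl2 was thus the main FOS transcript in 1057 and Fos in 1014-Grpr, before and after GRP. In 1064 Fosl2 held 49.6% to 51.1% with GRP and Fos 34.8% to 39.6%, while their shares overlapped in mock. FOS transcripts were 14.5% of the summed FOS and JUN transcripts in mock and 36.2% with GRP in 1057, and 9.21% and 26.5% in 1014-Grpr. In the JUN group of 1014-Grpr, Junb went from 8.31% to 10.6% in mock to 16.8% to 23.2% with GRP, and Jund stayed the most abundant in every line and treatment by mean TPM.

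**Figure D5:**
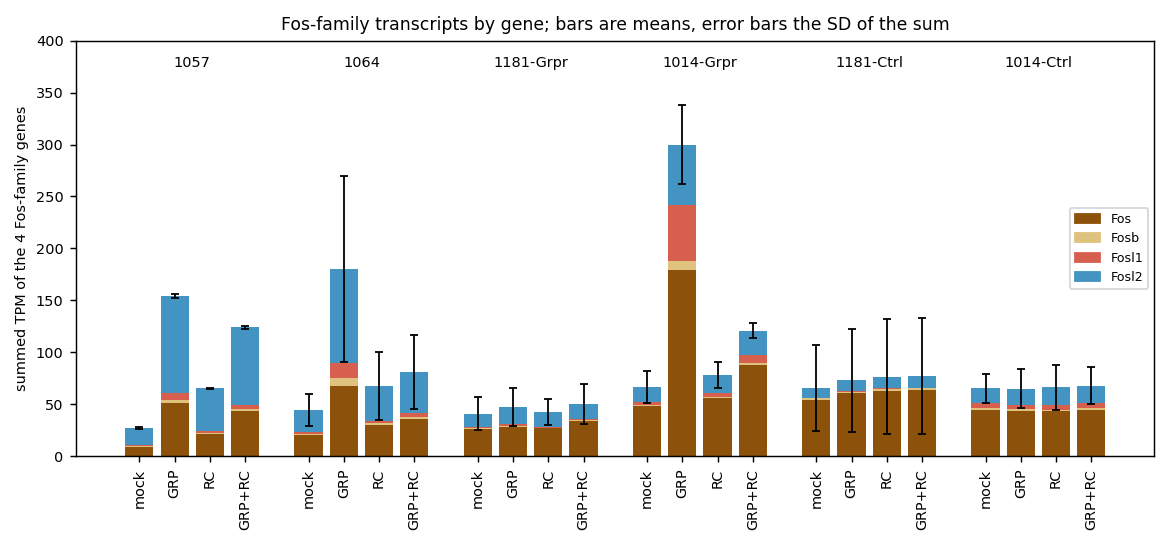
Summed TPM of the 4 FOS genes by line and treatment, each bar stacked by gene and showing the mean of the 2 or 3 libraries used, with the SD of the sum as an error bar. The red part (Fosl1) widens with GRP in 1014-Grpr, from 3.93% to 17.6% of the sum on average, and the blue part (Fosl2) holds 60.3% in 1057 with GRP.

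Other genes of the pathway were taken from lists chosen with earlier results of these data known, so their counts are descriptions. Of all genes tested, 4.96% rose with GRP in 1057, 1.52% in 1064 and 3.16% in 1014-Grpr. Of 8 other bZIP partners of AP-1, 1 of 8 tested rose with GRP in 1057 (Batf3, log2 fold change 1.11, SE 0.306), 0 of 6 in 1064 and 1 of 6 in 1014-Grpr. The latter was Atf3, a stress-induced repressor, at 3.08 (SE 0.216, adjusted p = 2.02e-06), with 0.17 (SE 0.038) in 1057 and 1.42 (SE 0.47, adjusted p = 0.103) in 1064. Of 10 MAF and CNC factors, Mafk rose in 1057 (1.20, SE 0.0481) and 1064 (1.07, SE 0.167) and was at 0.85 (SE 0.074) in 1014-Grpr, and Bach2 rose in 1057 (1.18, SE 0.082). Of 15 upstream kinases, SRF and its cofactors, only Srf rose, by 1.75 (SE 0.387) in 1064 and 1.43 (SE 0.106) in 1014-Grpr, with 0.16 (SE 0.0375) in 1057. None of these lists had a gene that fell, and none a called gene in 1181-Grpr or the lines without receptor.

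Of 20 textbook AP-1 target genes, 13 of 20 tested rose with GRP in 1057, 4 of 15 in 1064, 10 of 16 in 1014-Grpr and 0 of 16 in 1181-Grpr, and none fell. Of all genes tested, 4.96%, 1.52%, 3.16% and 0% rose in these lines. This list too was chosen with earlier results of these data known. Hbegf, an EGF receptor ligand, the protease Plau, its receptor Plaur and the matrix protein Tnc rose in each of 1057, 1064 and 1014-Grpr. Mmp10 (stromelysin 2) rose by 4.64 (SE 0.173) in 1057 and 4.47 (SE 0.598) in 1014-Grpr on the log2 scale, and was at 4.87 (SE 1.5, adjusted p = 0.0827) in 1064. Il6 and Areg, a cytokine and an EGF receptor ligand, were tested in 1057 only and rose by 4.64 (SE 0.544) and 4.48 (SE 0.105). With GRP+RC against GRP, 7 fell in 1057 and 7 in 1014-Grpr, and none in 1064, where 0.754%, 1.59% and 0.0145% of all genes did. The median log2 fold change of the list with GRP was 1.63 in 1057, 1.00 in 1064 and 1.32 in 1014-Grpr. Whether AP-1 acts on these genes here was not tested.

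The genes most like each member were found by Pearson correlation of log2 CPM, centred on the mock mean of each line, over 47 libraries of the 4 receptor-expressing lines and 12214 genes. These libraries share lines and treatments, so the coefficients describe the pattern only. Fos was most like Nr4a2 (r = 0.926), Gm16062 (0.922) and Nr4a3 (0.914), and Fosl2 was most like Slc23a2 (0.969), Nr4a2 (0.968) and Cfap43 (0.965). Fosb was most like Atp2b1 (0.938), Tnfaip8 (0.926) and Atp2a2 (0.921), and Fosl1 most like Eaf1 (0.954), Plagl1 (0.939) and Fem1b (0.926). Junb and Maff both had Relb, a subunit of NF-kB, among their first 3 (0.909 and 0.953), with Zfp703 (0.927) and Nfkb2 (0.894) for Junb and Larp1 (0.926) and Zswim4 (0.925) for Maff. Jun was most like Dgkd (0.899), Pdxk (0.894) and Wrnip1 (0.881), and Jund most like Sept5 (0.884), Cdc42ep5 (0.878) and Prkar1a (0.871). Within the group, the highest coefficients were those of Fos and Fosl2 (0.928), Fosb and Fosl1 (0.869), Jun and Jund (0.858), Junb and Maff (0.853), Fosl1 and Junb (0.844) and Fosb and Fosl2 (0.844), and the lowest those of Jund and Maff (-0.07) and Jun and Maff (0.16).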

How the data were processed

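RNA was measured by polyA-selected, strand-specific paired-end RNA-seq. The authors aligned reads with STAR to GRCm38.p5 (GENCODE M13) and ran FastQC 0.11.5, and the counting setting for strand is not given in the sources used here. The authors deposited raw counts per gene, without normalization, and TPM values, of which the columns of 1057 have a decimal comma that was read as a point. All columns were used (0 were left aside), and positions are from GENCODE M21.

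Lines, treatments and replicate numbers came from the labels. A library was left out where Ddx3y and Grpr both contradicted its label at 1 CPM, a rule set with earlier results known. The 8 genes and all lists were also chosen with earlier results of these data known. Counts were filtered with filterByExpr, normalized by TMM and tested with edgeR 4.0.16 (quasi-likelihood, 1 fit per line, or joint fits for differences between lines) in R 4.3.3, with Benjamini-Hochberg adjustment over all genes tested. A call needed an adjusted p under 0.05 together with a change of more than 1 in either direction on the log2 scale (the fold limit is that of the study). SE is the absolute log2 fold change over the square root of F. Figures used matplotlib 3.10.9. The scripts were tested on simulated data.

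The genes named are the 8 members, Grpr and Ddx3y, the 3 called genes of each list with the largest mean change over the receptor-expressing lines, the 3 genes most correlated with each member, and genes sharing exon bases with a member. Hbegf, Plau, Plaur, Tnc and the leukocyte markers were named after their values were seen.

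Same-numbered replicates were paired where all correlations of their deviations exceeded 0.1. This held in 1064 (lowest 0.583), 1181-Grpr (0.444), 1014-Grpr (0.386), 1181-Ctrl (0.740) and 1014-Ctrl (0.340), and failed in 1057 (lowest -0.154). The labels state no pairing, so the replicate block was an alternative. Other alternatives were DESeq2 1.42.0, its size factors in edgeR, no filter, the adjusted p alone, all libraries kept, 1 fit of all lines, limma 3.58.1 on log2 of TPM plus 1, and each replicate left out. No replicate pair agreed within sampling noise (lowest chi-square per degree of freedom 2.556). A floor of 3 counts is at most 0.154 CPM and covers counting error only, since reads had no molecular identifiers.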

Additional observations from a re-analysis of the deposited data

Results flagged for a closer look

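The GRP effect differed between 1014-Grpr and 1014-Ctrl, past both thresholds, for Fosl1 (4.6 on the log2 scale), Fosb (3.34), Fosl2 (2.05), Fos (2.03), Maff (1.88) and Junb (1.51).

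The GRP effect differed among the 4 receptor-expressing lines, by the F test of that difference in edgeR, for Junb (adjusted p = 1.66e-04), Fosl2 (3.11e-04), Maff (7.77e-04), Fosl1 (0.00155), Fosb (0.00310), Fos (0.0134) and Jund (0.0416). The difference between GRP+RC and GRP varied among these lines for Junb (adjusted p = 0.0223).

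The library labelled 1014-Ctrl mock replicate 2, which was used only where all libraries were kept under their labels, held 50.6 CPM of Grpr and 67.7 CPM of Ddx3y, whereas the other libraries of that line held at most 0.0347 CPM of Grpr and no read of Ddx3y.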

How the results depend on the processing

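Of the recomputed counts of called members, 767 stayed within 1.5 times and 37 did not, and no called member changed direction. Many of the 767 were counts of 0 that stayed 0, such as those of the control-vector lines. The 767 is thus no measure of how stable the calls were. With the adjusted p alone, 8 members were higher with GRP in 1057, 7 higher with RC, 5 lower with GRP+RC against GRP and 7 lower for the GRP effect with RC minus that without, and 2 higher with GRP+RC against mock in 1014-Grpr. With 1 fit of all lines, 1057 had 0 members lower with GRP+RC against GRP, 1 higher with RC and 2 lower for the GRP effect with RC minus that without, and 1064 had 3 lower in both. With limma on TPM, which moved the median of all genes by -0.13 in 1064 and -0.10 in 1014-Grpr for GRP against mock, 1057 had 0 lower with GRP+RC against GRP and 3 higher with GRP+RC against mock. In 1064, GRP+RC against GRP was called lower for 1 member by DESeq2, for 1 without the filter and for 3 with the replicate block (also with all libraries), and the GRP effect with RC minus that without for 1 by DESeq2 and for 4 with the block (also with all libraries). The variation of GRP+RC against GRP among the 4 lines passed for 2 members with all libraries kept, 2 without the filter and 6 with the block, and that of RC against mock for 4 with the block. The block changed no other call of a count by over 1.5 times. The causes were not tested.

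With the libraries of 1 replicate number left out, GRP called 0 to 1 members higher in 1064. In 1014-Grpr, GRP+RC against GRP called 3 to 5 lower (3 without replicate 2), GRP+RC against mock 0 higher each time, and the GRP effect with RC minus that without 3 to 5 lower (3 without replicate 1 and without replicate 2). The variation of the GRP effect among lines passed for 2 to 4 members and that of GRP+RC against GRP for 0 to 1. Fosl1, with 5 to 77 reads in the mock libraries of 1064, was the member most limited by depth.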

Other observations

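Of 19 other immediate-early genes, 7 of 19 tested rose with GRP in 1057, 7 of 18 in 1064, 12 of 17 in 1014-Grpr and 0 of 18 in 1181-Grpr, and none fell. Of all genes tested, 4.96%, 1.52%, 3.16% and 0% rose in these lines. Nr4a3, a nuclear receptor of the NR4A group, rose by 6.23 (SE 0.0967) in 1057 and 4.55 (SE 0.39) in 1014-Grpr on the log2 scale, and was at 3.18 (SE 0.922, adjusted p = 0.0679) in 1064. Nr4a2 rose in 1057 (3.23, SE 0.0486), 1064 (2.63, SE 0.334) and 1014-Grpr (2.36, SE 0.156). Egr4 rose in 1057 (3.06, SE 0.303). In 1014-Grpr, 9 of the list fell with GRP+RC against GRP, in 1064 1 did (Dusp5) and in 1057 none did, where 1.59%, 0.0145% and 0.754% of all genes did.

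Of the 7 melanocyte markers 1 rose with GRP, Tyrp1 in 1057 (1.04, SE 0.0396), and Cd68 of the leukocyte list rose in 1057 (1.99, SE 0.14) and 1014-Grpr (1.33, SE 0.297). Of the fibroblast, endothelial and keratinocyte markers, at most 4 of 6, 1 of 3 and 0 of 3 passed the count filter in a line, and 0 were called with GRP. Their summed levels reached at most 14.2, 4.73 and 2.22 TPM. Junos, antisense to Jun, rose in 1057 (1.45, SE 0.296), more than Jun itself (0.80, SE 0.0755), and was at 0.83 (SE 0.25) in 1014-Grpr.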
